A study of Mus musculus with 16 samples.

Results

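The Lce and Sprr genes encode precursors of the cornified envelope, the cross-linked protein shell of the outermost keratinocytes, and are described here in mouse dorsal skin with and without UVB. Members were all genes whose symbol starts with Lce or Sprr followed by a digit, which gave 38 of the 55359 gene IDs in the files. They comprise 14 Lce1, 6 Lce3, 13 Sprr2 and 2 Sprr1 genes, Lce6a, Sprr3 and Sprr4. Whole dorsal skin was taken from male mice aged 8 weeks, labelled telogen, when hair follicles rest. The 4 groups were Tnfrsf1a/b KO after 3xUVB (KO UVB), WT after 3xUVB (WT UVB), Tnfrsf1a/b KO without UVB (KO control) and WT without UVB (WT control), with 4 libraries each. The KO lacks both TNF receptors by its label. How the KO alleles were made, the strain, and the dose and schedule of UVB are not stated in the labels. The labels do not tie libraries to individual mice, so the spread behind each p-value may be technical.

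Late cornified envelope (LCE) and small proline-rich (SPRR) proteins are made late in keratinocyte differentiation and are joined by transglutaminases to involucrin and loricrin under the cell membrane. The genes lie in the epidermal differentiation complex, where relatives sit side by side. In human skin, LCE1 genes are known as products of normal terminal differentiation, whereas LCE3 and several SPRR genes are known for induction after barrier damage and in psoriasis.

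The promoters of members that behaved differently are shown first, as the 200 bases before the annotated start (RefSeq, GRCm38.p6, chromosome 3, read 5′ to 3′ on the gene's strand). Capitals mark matches to any of 7 motifs searched on both strands, namely AP-1 (TGANTCA), C/EBP (TTGCNNAA), the antioxidant response element (TGACNNNGC), Klf (GGGTGNGG), Grhl (AACCNGTT), NF-kB (GGNNTTTCC) and the TATA box (TATAAA). The first 3 are Sprr genes, at chr3:92438780-92438979 (minus strand), chr3:92485882-92486081 (minus strand) and chr3:92385485-92385684 (plus strand).
Sprr1b: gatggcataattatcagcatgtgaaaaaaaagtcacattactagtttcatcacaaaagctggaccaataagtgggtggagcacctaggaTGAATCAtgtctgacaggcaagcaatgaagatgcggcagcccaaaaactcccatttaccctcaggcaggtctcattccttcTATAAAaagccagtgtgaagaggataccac
Sprr1a: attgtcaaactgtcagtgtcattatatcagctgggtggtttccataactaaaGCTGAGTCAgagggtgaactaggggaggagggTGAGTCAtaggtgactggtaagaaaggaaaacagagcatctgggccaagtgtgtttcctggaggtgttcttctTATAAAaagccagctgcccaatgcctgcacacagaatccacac
Sprr2h: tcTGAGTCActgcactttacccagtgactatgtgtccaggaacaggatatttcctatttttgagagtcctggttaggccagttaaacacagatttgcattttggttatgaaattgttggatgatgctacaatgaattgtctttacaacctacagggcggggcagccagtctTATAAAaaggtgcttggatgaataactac
The next 3 are Lce genes, at chr3:92752339-92752538 (minus strand), chr3:93019062-93019261 (minus strand) and chr3:92944286-92944485 (plus strand).
Lce1g: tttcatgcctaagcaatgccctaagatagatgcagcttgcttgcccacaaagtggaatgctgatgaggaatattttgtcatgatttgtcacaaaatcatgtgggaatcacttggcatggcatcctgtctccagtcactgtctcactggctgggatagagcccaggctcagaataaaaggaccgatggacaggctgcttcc
Lce1m: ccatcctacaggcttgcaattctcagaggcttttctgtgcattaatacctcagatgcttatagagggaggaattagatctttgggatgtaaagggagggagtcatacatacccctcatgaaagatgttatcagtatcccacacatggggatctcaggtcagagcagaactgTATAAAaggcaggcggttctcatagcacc
Lce3c: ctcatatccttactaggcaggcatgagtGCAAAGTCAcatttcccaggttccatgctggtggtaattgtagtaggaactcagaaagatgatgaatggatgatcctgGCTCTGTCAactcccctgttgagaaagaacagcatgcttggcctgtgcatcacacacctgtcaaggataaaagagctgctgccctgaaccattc
In Sprr1b the capitals are AP-1 and a TATA box. In Sprr1a they are an antioxidant response element that overlaps an AP-1 match, a second AP-1 match and a TATA box. Sprr2h holds AP-1 and a TATA box, Lce1m a TATA box, Lce3c antioxidant response element matches, and Lce1g no match.

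The AP-1 letters differed between the families. Windows from 250 bases before to 50 after the start were given for 34 of the 38 members. AP-1 was found in 9 of 14 Sprr windows (both Sprr1 genes and 7 of 10 Sprr2 genes) and in 0 of 20 Lce windows, against 7.81% of all 32851 windows. In each of those 7 Sprr2 windows a TGAGTCA match began at -198 to -193 from the start. Windows of related genes in 1 cluster are not independent, and the counts in this paragraph are given as a description. TATA box letters, counted on either strand and at any position, were found in 10 of 14 Sprr and 4 of 20 Lce windows, against 13.6% of all windows. All Sprr matches were on the gene's strand and began at -43 to -29 from the start. So did those of Lce1d (-30) and Lce1m (-29). Those of Lce6a (-218) and Lce3e (-243) were on the opposite strand and far from the usual place of a TATA box. Antioxidant response element letters were found in 5 Lce and 2 Sprr windows (12.4% of all windows), Klf in 4 Sprr2 windows (16.6%), C/EBP in Lce3f and Sprr2i (10.8%), NF-kB in Sprr2b alone (5.82%) and Grhl in none (2.09%). A match is a run of letters and no measurement of binding.

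Depth was 15644375 to 23200649 reads in genes per library. Levels are read counts scaled to library size with TMM factors (CPM). Changes are given on the log2 scale with their SE, tested by edgeR's quasi-likelihood method over 17531 genes, and a gene was called at an adjusted p under 0.05. The deleted genes checked the labels in part. Tnfrsf1a had 82.2 to 104.8 CPM in the KO libraries against 133 to 162 CPM in the WT libraries, and Tnfrsf1b had 15.6 to 27.9 against 33.6 to 69.6 CPM, so both were lower in every KO library but still present. Keratinocyte markers were abundant in all groups, with Krt10 at 6833 to 22380 CPM in KO UVB, 10340 to 13550 CPM in WT UVB, 3287 to 5418 CPM in KO control and 2604 to 3540 CPM in WT control. Markers of the growing (anagen) hair follicle went against the telogen label. Their 17 genes summed to 13.4 to 26.0 CPM in KO UVB, 20.5 to 190.1 CPM in WT UVB, 90.6 to 326 CPM in KO control and 1236 to 3157 CPM in WT control, none of them without a read in any group. WT UVB replicate 2 held the 190.1 CPM and the other WT UVB libraries 20.5 to 29.0 CPM. All 17 were called lower after UVB, against 15.1% of all genes in KO and 8.6% in WT. Without UVB, 14 were called lower in KO than in WT, where 1.69% of all genes were called in either direction. The hair follicle markers thus differed along with both UVB and genotype, and their part in the member values was not tested.

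Nearly all measurable members were higher after UVB. Of the 38 members, 31 had enough reads over the 4 groups to be tested, some of them only through UVB libraries. In KO skin 29 were called higher and 0 lower, against 17.2% of all tested genes called higher and 15.1% lower, and the median log2 fold change of the 31 was 2.82 (all genes -0.02). In WT skin 23 were called higher and 0 lower, against 10.2% of all genes higher and 8.6% lower, with a median of 2.39 (all genes -0.03). For 28 members in KO skin (13.6% of all genes, higher) and 24 in WT skin (15.1%), every UVB library exceeded every control library. Lce1m and Sprr2f were uncalled in both genotypes, and Sprr1a, Sprr4, Sprr2e, Sprr2g, Lce3a and Lce3b in WT. Lce1m alone had a value below 0. In a fit of the WT groups alone, 26 members had enough reads to be tested, and 23 were called. In whole skin, more cells of a type and more RNA per cell cannot be told apart. Markers of suprabasal keratinocytes moved with these genes. Their 7 genes, all with reads in every group, summed to 13700 to 45490 CPM in KO UVB, 20750 to 27350 CPM in WT UVB, 6304 to 10130 CPM in KO control and 5194 to 6823 CPM in WT control, and 5 of 7 in KO skin and 6 of 7 in WT skin were called higher. Their part in the result was not tested.

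**Figure D1:**
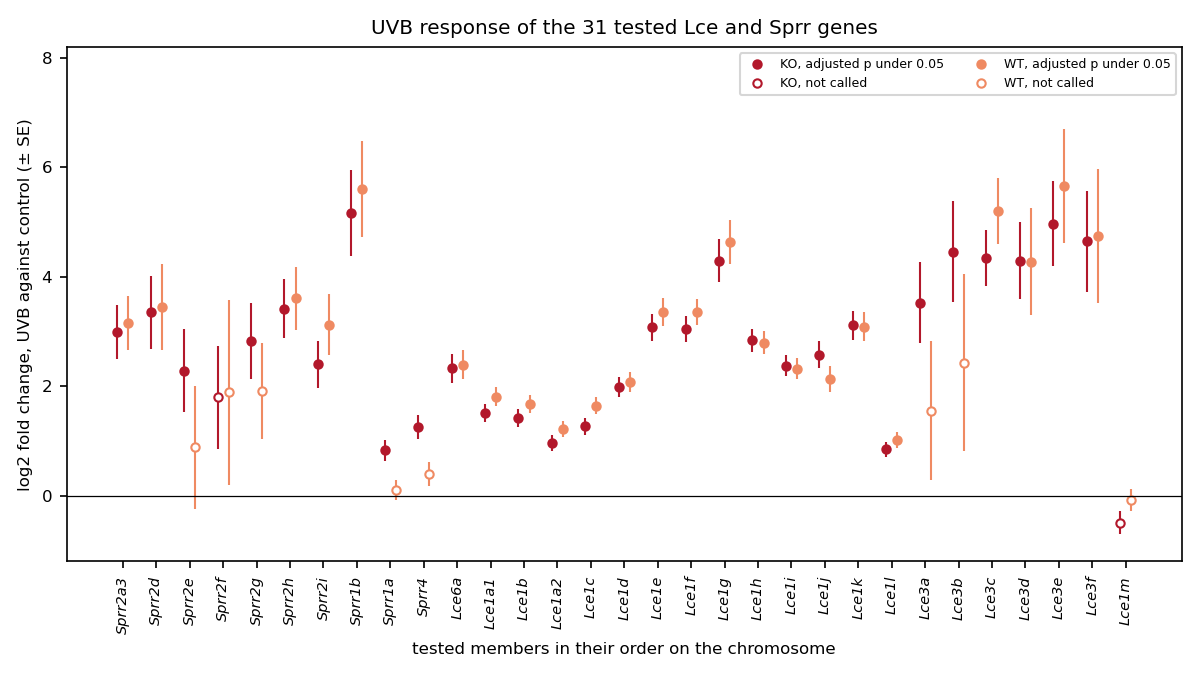
Log2 fold change of UVB against control (y axis, ± SE) for the 31 tested members in chromosome order, with KO in dark red left of WT in orange and open circles for genes not called. Lce1m at the far right is the 1 gene below 0 in both genotypes, Sprr1b is highest in KO and Lce3e in WT, the latter from 4 control reads. The WT values of Lce3a and Lce3b are uncalled, and that of Lce3b rests on 3 control reads in all.

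Together the 38 genes took 3752 ± 602 CPM in KO UVB and 3284 ± 372 CPM in WT UVB, against 1520 ± 258 CPM in KO control and 1382 ± 176 CPM in WT control (SD, n = 4 each). Lce1 made up most of this sum in every group, with 2853 ± 479 CPM in KO UVB, 2753 ± 305 CPM in WT UVB, 1231 ± 229 CPM in KO control and 1039 ± 190 CPM in WT control. The UVB sum was 2.32 times the control sum for Lce1 in KO skin and 2.65 times in WT skin. For Lce3 the ratio was 20.3 in KO skin and 30.6 in WT skin, from a control level of 3.15 ± 2.58 CPM in KO and 0.606 ± 0.525 CPM in WT. Without WT control replicate 4, which had the highest Lce3 sum of the WT controls, the WT ratio was 53.6. Sprr2 stood between them at 8.35 in KO skin and 9.46 in WT skin. The Sprr1 sum, which is mostly Sprr1a, was 2.72 times the control sum in KO skin and 1.32 times in WT skin.

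**Figure D2:**
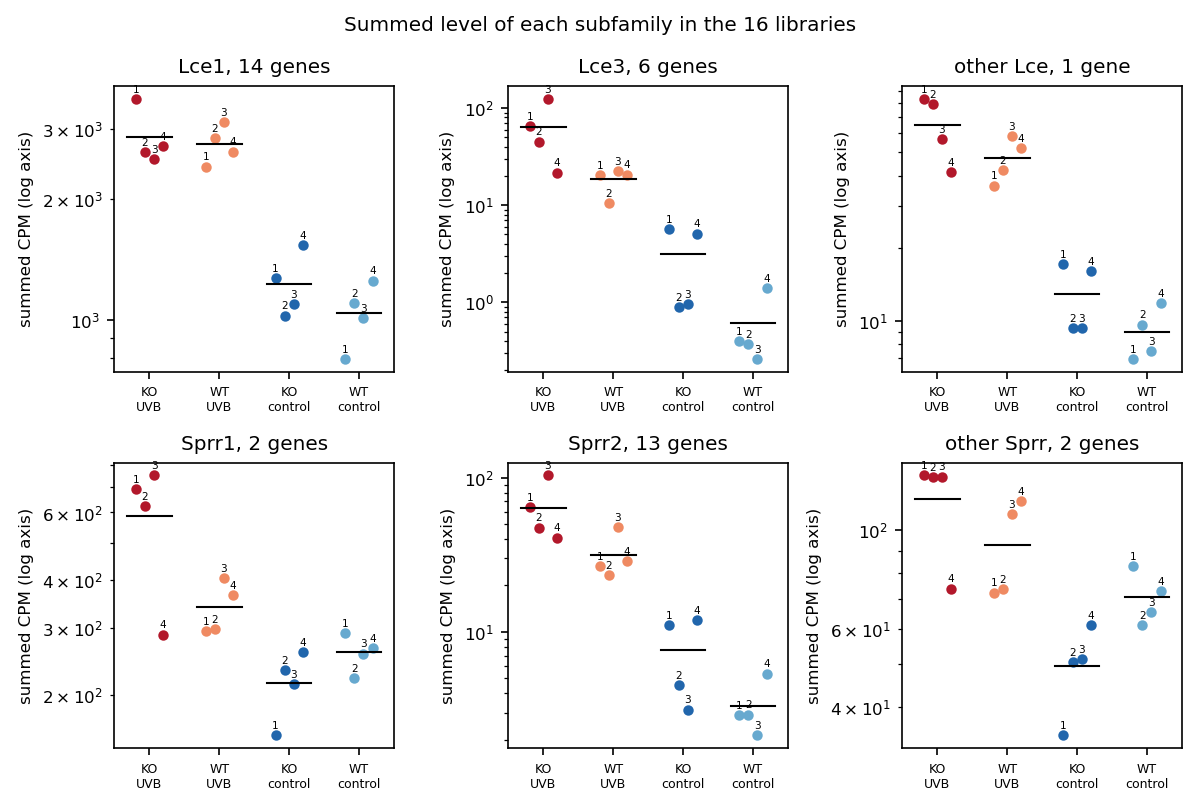
Summed CPM of each subfamily (log axis) in each library, numbered by replicate, with bars at the group means and the groups in the order KO UVB, WT UVB, KO control, WT control. Lce3 and Sprr2 show the widest gap between UVB and control libraries, and KO UVB replicate 4 lies below the other KO UVB libraries for Lce3, Lce6a, Sprr1, Sprr2 and Sprr4.

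Among the Lce1 genes, 13 of 14 were called higher in both genotypes. Lce1a1, the most abundant of them after UVB, had 485, 347, 337 and 378 CPM in KO UVB and 317, 390, 396 and 348 CPM in WT UVB. Its control values were 153, 107, 118 and 167 CPM in KO and 81.1, 104, 99.3 and 129 CPM in WT. Every UVB library was above every control library, and the log2 fold change was 1.51 ± 0.17 in KO (adjusted p = 2.97e-05) and 1.81 ± 0.17 in WT (adjusted p = 8.39e-06). Lce1b had 323, 246, 234 and 246 CPM in KO UVB, 223, 269, 286 and 251 CPM in WT UVB, 116, 73.1, 88.9 and 114.5 CPM in KO control, and 60.4, 86.7, 79.3 and 94.3 CPM in WT control. These groups did not overlap either, and KO UVB replicate 1 was the highest of the 16 libraries for both genes.

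Lce1g (ENSMUSG00000027919.6), the lowest Lce1 gene per kb of exon without UVB, showed the largest Lce1 change. It had 246, 179, 173 and 130.4 CPM in KO UVB against 18.7, 4.75, 4.21 and 9.43 CPM in KO control. In WT it had 125, 152, 167 and 158 CPM after UVB against 5.50, 4.40, 5.07 and 9.01 CPM without. Its lowest UVB library was several times its highest control library, with a log2 fold change of 4.30 ± 0.40 in KO (adjusted p = 8.76e-06) and 4.64 ± 0.41 in WT (adjusted p = 6.63e-06). Without KO control replicate 1, the KO value was 4.92.

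The remaining called Lce1 genes rose by less than Lce1g in both genotypes. Lce1e rose by 3.08 in KO and 3.36 in WT on the log2 scale, Lce1f by 3.04 and 3.36, Lce1k by 3.11 and 3.09, and Lce1h by 2.84 and 2.79. Lower changes were seen for Lce1j (2.58 in KO and 2.13 in WT), Lce1i (2.38 and 2.32), Lce1d (1.99 and 2.08) and Lce1c (1.26 and 1.65). The smallest were Lce1a2 (0.97 and 1.21) and Lce1l (0.84 and 1.02), with adjusted p-values of 0.00054 or less in both genotypes. The order of the changes was close to the reverse of the order of control levels. Lce1a1, Lce1a2, Lce1b and Lce1c, the most abundant of the 13 without UVB per kb of exon, changed less than Lce1e, Lce1f, Lce1g, Lce1h and Lce1k.

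The levels of these 13 genes lay closer together after UVB. Per kb of exon, the highest had 4.83 times the level of the lowest in KO UVB (Lce1a1 at 549 and Lce1k at 114 CPM per kb) and 5.01 times in WT UVB (Lce1a1 at 514 and Lce1j at 103). The same ratio was 19.3 in KO control (Lce1a1 at 193 and Lce1g at 10.03) and 24.1 in WT control (Lce1a2 at 156 and Lce1g at 6.48). Across the 14 Lce1 genes, the level in WT control and the log2 fold change in KO, which share no library, had a Spearman correlation of -0.93, and the level in KO control and the change in WT one of -0.82. Without Lce1m these were -0.91 and -0.78. They are correlations across genes of 1 cluster, which are not independent replicates, and are given as a description.

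**Figure D3:**
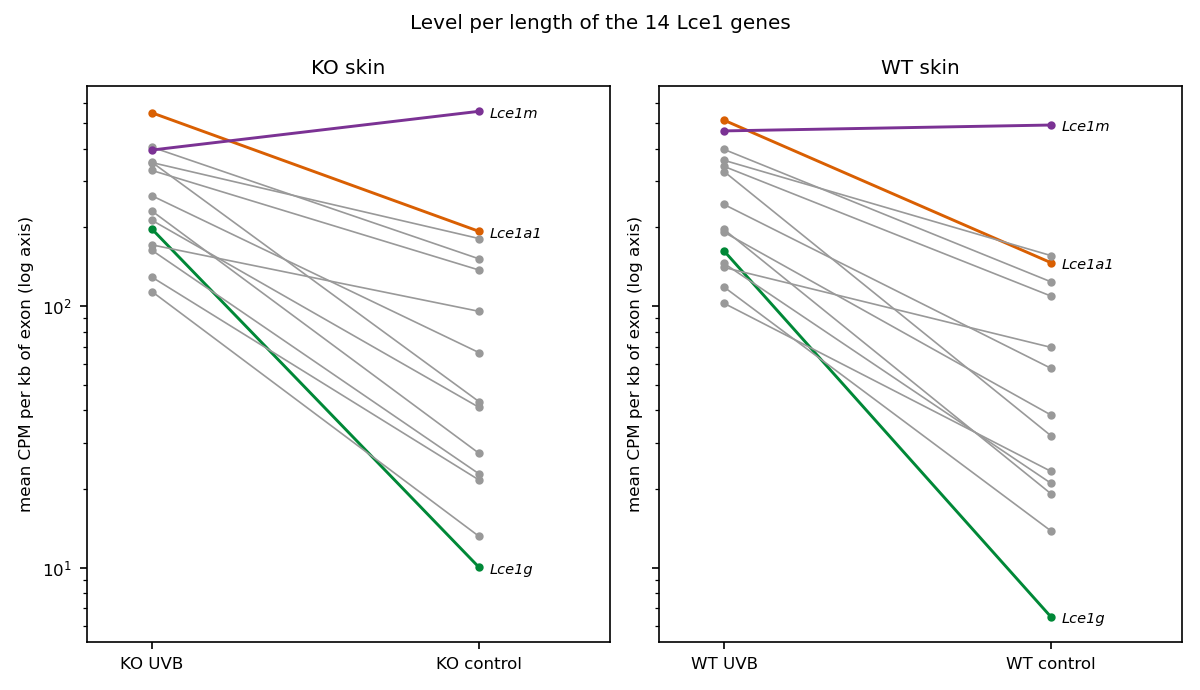
Mean CPM per kb of exon (log axis) of the 14 Lce1 genes, KO skin in the left panel and WT skin in the right, with UVB left of control in each. The lines fan out from UVB to control. Lce1m (purple) is the highest gene without UVB, and Lce1g (green) is the lowest.

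Lce1m (ENSMUSG00000027912.9) was the exception. It had 390, 287, 308 and 517 CPM in KO UVB, 396, 469, 546 and 366 CPM in WT UVB, 469, 480.1, 476 and 686 CPM in KO control, and 343, 527, 449 and 552 CPM in WT control. The groups overlapped in both genotypes. Its log2 fold change was -0.49 ± 0.20 in KO (adjusted p = 0.075) and -0.07 ± 0.20 in WT (adjusted p = 0.83). Without KO UVB replicate 4, the KO value was -0.66 with an adjusted p of 0.015, so the call in KO depended on that library. Without UVB, Lce1m was the most abundant Lce1 gene, at 556 CPM per kb in KO and 493 CPM per kb in WT. It lies apart from the other Lce1 genes, beyond the Lce3 block and Crct1, and 0% of the 100-base stretches of its transcripts were found in another gene.

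Lce6a, which opens the Lce run next to Ivl and Smcp, behaved like the middle of Lce1. It had 83.1, 79.1, 56.9 and 41.3 CPM in KO UVB, 36.4, 42.2, 58.3 and 52.1 CPM in WT UVB, 17.2, 9.37, 9.37 and 16.1 CPM in KO control, and 6.97, 9.67, 7.52 and 11.8 CPM in WT control. No UVB library overlapped a control library. The log2 fold change was 2.33 ± 0.26 in KO (adjusted p = 3.97e-05) and 2.39 ± 0.27 in WT (adjusted p = 4.14e-05).

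The 6 Lce3 genes were close to silent without UVB, and UVB raised all 6 in KO skin and 4 in WT skin. Lce3c (ENSMUSG00000045475.6), the most abundant, had 34.7, 21.5, 41.9 and 13.0 CPM in KO UVB and 13.4, 8.06, 11.8 and 13.3 CPM in WT UVB. Its control values were 2.33, 0.509, 0.533 and 2.16 CPM in KO and 0.0894, 0.124, 0.262 and 0.717 CPM in WT. All UVB libraries lay above all control libraries, by 4.34 ± 0.51 on the log2 scale in KO (adjusted p = 5.1e-05) and 5.21 ± 0.61 in WT (adjusted p = 5.2e-05). Without WT control replicate 4 the WT change was 6.11.

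Lce3d had 11.9, 7.87, 28.0 and 4.14 CPM in KO UVB, 2.54, 0.854, 2.91 and 1.61 CPM in WT UVB, 1.17, 0.0848, 0.160 and 1.28 CPM in KO control, and 0.134, 0.186, 0 and 0.0896 CPM in WT control. Lce3e had 8.36, 6.56, 15.3 and 1.41 CPM in KO UVB, 2.17, 0.806, 4.46 and 3.50 CPM in WT UVB, 0.583, 0.170, 0 and 0.222 CPM in KO control, and 0.0447, 0.0620, 0 and 0.0896 CPM in WT control. Neither gene overlapped between UVB and control in WT, nor in KO. The changes were 4.30 ± 0.71 (KO) and 4.28 ± 0.98 (WT) for Lce3d and 4.97 ± 0.78 (KO) and 5.66 ± 1.03 (WT) for Lce3e, all called. The WT controls held only 8 reads of Lce3d and 4 of Lce3e in all, so the size of these WT changes is uncertain. Without KO UVB replicate 3, the KO change of Lce3d was 3.60, and without KO control replicate 1 that of Lce3e was 5.85.

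Lce3f changed by 4.65 ± 0.93 in KO and 4.75 ± 1.22 in WT, where its 5 control reads were all in replicate 4. Without that replicate the WT controls held 0 reads. The WT UVB mean was then at least 36.1-fold higher than a floor of 3 reads over the 3 remaining controls, and the fitted log2 value of 8.16 (adjusted p = 0.024) is no bound. The KO value was 3.61 without KO UVB replicate 3 and 5.76 without KO control replicate 1. In WT the call of Lce3f was lost when genes with as few as 1 read were tested too (adjusted p = 0.053). Lce3c, Lce3d, Lce3e and Lce3f are near copies in part. Of the 100-base stretches in their transcripts, 24.2%, 28.3%, 36.4% and 43.0% were found in another gene, in the order of their names, so their separate levels are uncertain.

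Lce3a and Lce3b, which share at most 1.08% of such stretches, had their highest levels in KO UVB. Lce3a (ENSMUSG00000054325.6) had 2.94, 3.31, 10.4 and 0.956 CPM in KO UVB, 0.231, 0.0474, 0.388 and 0.222 CPM in WT UVB, 0.535, 0.127, 0.107 and 0.777 CPM in KO control, and 0.0447, 0, 0 and 0.224 CPM in WT control. Lce3b (ENSMUSG00000042031.5) had 2.19, 2.11, 11.5 and 1.18 CPM in KO UVB, 0.508, 0, 0.339 and 0 CPM in WT UVB, 0.340, 0, 0.107 and 0.333 CPM in KO control, and 0.0894, 0, 0 and 0.0448 CPM in WT control. For both genes, each KO UVB library stood above all 12 others, and replicate 3 was the highest of them. UVB raised Lce3a by 3.53 ± 0.74 (adjusted p = 0.0025) and Lce3b by 4.46 ± 0.92 (adjusted p = 0.0023) in KO skin. Without KO UVB replicate 3, these were 2.65 and 3.24, both still called. In WT skin Lce3a had a log2 fold change of 1.56 ± 1.27 (adjusted p = 0.42) from 18 reads after UVB and 6 without. Of those 6 reads, 5 were in WT control replicate 4, and without it the value was 3.35 (adjusted p = 0.21). Lce3b had 18 reads in WT UVB and 3 in WT control, and no fold is given. The difference between the UVB effects in KO and WT was 1.97 ± 1.74 for Lce3a (adjusted p = 0.67) and 2.03 ± 2.65 for Lce3b (adjusted p = 0.78), so the effects were not shown to differ.

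Sprr1b and Sprr1a encode the Sprr1 proteins, and the pair sits on either side of Sprr3. Sprr1b (ENSMUSG00000048455.10) had 296, 249, 265 and 51.6 CPM in KO UVB and 48.7, 33.1, 92.1 and 84.9 CPM in WT UVB. Control values were 10.7, 0.551, 1.01 and 12.1 CPM in KO and 0.626, 1.98, 0.918 and 1.88 CPM in WT. UVB and control libraries were far apart, with a log2 fold change of 5.16 ± 0.79 in KO (adjusted p = 0.00035) and 5.61 ± 0.88 in WT (adjusted p = 0.00055). KO UVB replicate 4 was within the WT UVB range and the other KO UVB libraries above it, and KO control replicates 1 and 4 exceeded all WT control libraries.

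Sprr1a was abundant without UVB. It had 394, 374, 484 and 236 CPM in KO UVB, 246, 265, 313 and 281 CPM in WT UVB, 147, 232, 213 and 248 CPM in KO control, and 290.3, 220.4, 256 and 263 CPM in WT control. The groups overlapped in both genotypes, in KO through the UVB replicate 4 alone. The change was called in KO, at 0.83 ± 0.19 (adjusted p = 0.0041), and not in WT, at 0.10 ± 0.19 (adjusted p = 0.74). The test of the difference between the 2 UVB effects gave 0.73 ± 0.27 with an adjusted p of 0.28, so the effects were not shown to differ. Both Sprr1 windows hold AP-1 letters, while their UVB changes in WT were among the largest and the smallest of all members.

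Sprr4, known in human skin for a link with UV exposure, followed Sprr1a. It had 133, 132, 132 and 73.4 CPM in KO UVB, 72.3, 73.8, 109 and 116 CPM in WT UVB, 34.4, 50.4, 51.3 and 61.2 CPM in KO control, and 83.1, 61.1, 65.5 and 72.8 CPM in WT control. KO UVB libraries lay above KO control libraries, while WT UVB and WT control overlapped. The change was 1.25 ± 0.22 in KO (adjusted p = 0.00071) and 0.39 ± 0.21 in WT (adjusted p = 0.21), and the difference of the effects was 0.86 ± 0.30 (adjusted p = 0.26). Sprr3, a gene of internal stratified epithelia such as the oesophagus, had 22 reads in all 16 libraries, 18 of them in KO UVB, and was not tested.

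**Figure D4:**
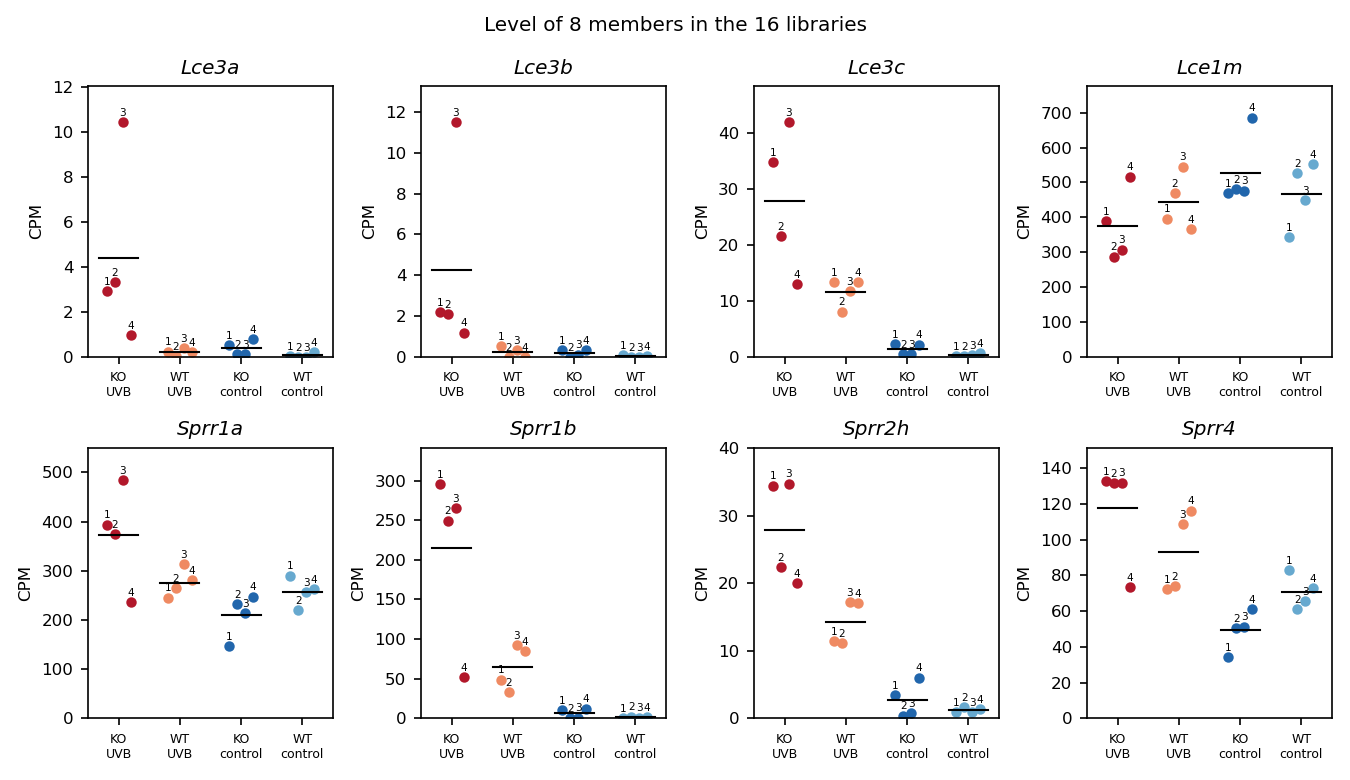
CPM (linear axes from 0) of 8 members in each library, numbered by replicate, with bars at the group means and the groups in the order KO UVB, WT UVB, KO control, WT control. Lce3a and Lce3b are high in KO UVB and led by replicate 3, Sprr1b and Sprr4 are low in KO UVB replicate 4, and Lce1m overlaps between all groups.

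Of the 13 Sprr2 genes, 7 were tested, and UVB raised 6 in KO skin and 4 in WT skin. Sprr2h (ENSMUSG00000046259.3), the most abundant, had 34.5, 22.4, 34.8 and 20.0 CPM in KO UVB, 11.5, 11.2, 17.3 and 17.1 CPM in WT UVB, 3.45, 0.381, 0.746 and 6.05 CPM in KO control, and 0.894, 1.61, 0.874 and 1.34 CPM in WT control. No UVB library overlapped a control library. The change was 3.42 ± 0.54 in KO (adjusted p = 0.00039) and 3.61 ± 0.58 in WT (adjusted p = 0.00058). Without KO control replicate 4, the KO value was 4.22.

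Sprr2a3 had 10.9, 12.2, 15.9 and 6.19 CPM in KO UVB, 8.31, 6.12, 19.1 and 7.39 CPM in WT UVB, 1.60, 2.12, 1.28 and 0.555 CPM in KO control, and 1.03, 0.372, 0.830 and 2.24 CPM in WT control. Sprr2d had 9.95, 5.59, 21.7 and 5.74 CPM in KO UVB, 3.55, 2.42, 6.06 and 2.28 CPM in WT UVB, 1.80, 0.466, 0.107 and 1.89 CPM in KO control, and 0.179, 0.310, 0.0437 and 0.762 CPM in WT control. UVB libraries exceeded control libraries for both, by 2.99 ± 0.49 (KO) and 3.16 ± 0.50 (WT) for Sprr2a3 and by 3.35 ± 0.67 (KO) and 3.45 ± 0.78 (WT) for Sprr2d, all called. Sprr2d changed by 2.75 in KO without KO UVB replicate 3 and by 4.39 in WT without WT control replicate 4. Sprr2i was called in both genotypes, at 2.40 ± 0.44 in KO and 3.12 ± 0.56 in WT, where it was 3.87 without WT control replicate 1.

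Sprr2g and Sprr2e were called in KO only, which is no test of a difference between genotypes. Sprr2g changed by 2.82 ± 0.70 in KO (adjusted p = 0.0067) and 1.91 ± 0.88 in WT (adjusted p = 0.14). Its KO value was 2.01 without KO UVB replicate 3 and 3.52 without KO control replicate 1. Sprr2e changed by 2.29 ± 0.75 in KO (adjusted p = 0.030) and 0.88 ± 1.12 in WT (adjusted p = 0.62). Its KO call was lost without KO UVB replicate 3 (1.21, adjusted p = 0.19), without KO control replicate 2 (adjusted p = 0.081) and without KO control replicate 3 (adjusted p = 0.084). Sprr2f, with 172 reads in all, had 1.79 ± 0.94 in KO and 1.89 ± 1.69 in WT and was called in neither. Its KO value was 0.32 without KO UVB replicate 3 and 2.44 without KO control replicate 4, and its WT value 3.28 without WT control replicate 2.

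Members too sparsely read to be tested were all Sprr genes. Sprr2b had 82 reads in all, 47 of them in KO UVB and 25 in WT UVB against 2 in KO control and 8 in WT control. It entered the test and was called higher in KO skin in 16 of 24 alternatives, among them most that left out 1 library. Leaving out 1 library also lowers the number of libraries in which the filter asks for reads. Sprr2b was not called without KO UVB replicate 1, KO UVB replicate 3 or WT UVB replicate 3, the libraries where its level was highest. These fits share most libraries, so their number is no independent support. Sprr2a1 had 24 reads and Sprr2a2 had 19, while 92.5% and 92.8% of their 100-base stretches were found in another gene, as were 36.2% of those of Sprr2a3. Sprr2a1 and Sprr2a2 are thus near copies of each other, while Sprr2a3, with 1965 reads, is a near copy in part. How reads were divided between the 3 is uncertain, and the part of shared sequence in their read counts was not tested. The pseudogene Sprr2j-ps had 31 reads, 24 of them in KO UVB, and Sprr2k had 9. Sprr2c-ps had 0 reads, and by counting error alone a count of 0 allows up to 3 reads over the 16 libraries. The labels give no read length, and shorter stretches are shared more widely. At 50 bases the share was 61.1% for Sprr2a3, 35.7 to 49.3% for Lce3c to Lce3f, 19.0% for Lce3a, 12.1% for Lce3b and 9.12 to 27.1% for the Lce1 genes other than Lce1m, which stayed at 0%. The files hold 0 reads on the line for reads that align to several places, and the part of reads lost from shared stretches was not tested.

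**Figure D5:**
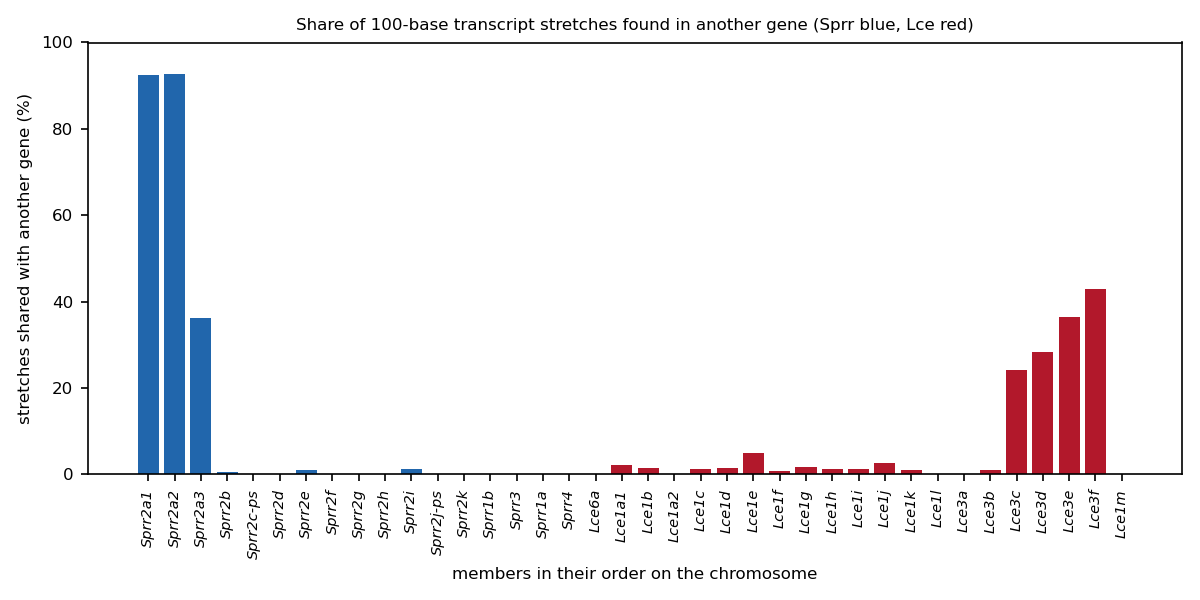
Share of each member's 100-base transcript stretches that also occur in another gene (y axis, percent, from 0 to 100), with members in chromosome order, Sprr in blue and Lce in red. The Sprr2a copies reach 92.8% and Lce3c to Lce3f reach 43.0%, while the other members stay at or below 4.90% at this stretch length.

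Without UVB, 0 of the 31 members were called between KO and WT, against 1.69% of all genes. At an unadjusted p under 0.05 there were 7 (10.9% of all genes), and DESeq2 called 2, Lce3c and Sprr2i, both higher in KO. In a fit of the control groups alone, 22 members had enough reads to be tested, and 0 were called. The others of the 31 entered the test through UVB libraries and had few control reads. The groups did not overlap for Sprr2i alone (3.05% of all genes, higher), with 0.972, 1.06, 0.426 and 0.555 CPM in KO control against 0.358, 0.124, 0.0874 and 0.0896 CPM in WT control. Its log2 fold change was 2.16 ± 0.59 with an adjusted p of 0.096. Among Lce1 genes the fitted values ran between -0.11 and 0.62. The Lce3 sum was 5.64, 0.890, 0.959 and 5.10 CPM in KO control and 0.402, 0.372, 0.262 and 1.39 CPM in WT control. KO control replicates 1 and 4 were thus high and the other KO controls were within the WT range. The same libraries had 85.6 and 79.0 CPM of Krt6b, a keratin of wounded epidermis, against 2.33 and 2.82 CPM in KO control replicates 2 and 3 and 2.88 to 9.32 CPM in WT control. Krt16 split likewise, with 63.2, 11.6, 11.0 and 60.8 CPM in KO control and 16.7 to 28.8 CPM in WT control. Krt6a had 135, 111, 70.2 and 132 CPM in KO control against 95.5 to 138 CPM in WT control, so replicates 1 and 4 were within the WT range. All 17 wound and stress genes, Krt6b and Krt16 among them, summed to 758, 765, 632 and 926 CPM in KO control against 713 to 964 CPM in WT control. The other wound genes are not given singly by library, and a sum hides genes of low level. The part of the Lce3 split in the genotype values was not tested.

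After UVB, 2 members were called between KO and WT, Lce3a and Lce3b, against 0.496% of all genes called higher. From the values given above, Lce3a was higher in KO by 4.28 ± 0.80 on the log2 scale (adjusted p = 0.021) and Lce3b by 4.25 ± 0.90 (adjusted p = 0.037), with no overlap between the groups. Without KO UVB replicate 3, Lce3a was higher by 3.39 (adjusted p = 0.0495) and Lce3b by 3.02 (adjusted p = 0.11). Both calls were lost without WT UVB replicate 1, 2 or 4, with adjusted p-values of 0.066 to 0.080 for Lce3a, and Lce3b was also lost without WT UVB replicate 3, KO UVB replicate 2, WT control replicate 1 or 4, or KO control replicate 3. Without WT UVB replicate 1, the value of Lce3b was 5.11. With at most 18 reads of each gene in WT UVB, these calls rest on few reads in that group. Both genes had enough reads to be tested only through KO UVB, the group where they were highest.

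Other Lce3 and Sprr2 genes pointed the same way without passing the test. Lce3d was higher in KO UVB by 2.71 ± 0.62 (adjusted p = 0.056), Sprr2e by 3.10 ± 0.81 (adjusted p = 0.080), Sprr2g by 2.55 ± 0.68 (adjusted p = 0.083) and Sprr2i by 1.43 ± 0.41 (adjusted p = 0.10). DESeq2 called these 4 as well as Lce3a and Lce3b. In all, 7 members did not overlap between KO UVB and WT UVB, all higher in KO, against 4.27% of all genes, and they were Lce3a, Lce3b, Lce3d, Sprr2e, Sprr2g, Sprr2h and Sprr2i. No Lce1 gene was among them, and the Lce1 values ran between -0.24 and 0.33. Lce3a, Lce3b and Sprr2e had enough reads to be tested only through KO UVB. Their lack of overlap is therefore no independent support for a difference between genotypes. Sprr1b stood at 1.74 ± 0.66 (adjusted p = 0.21). In the interaction, 0 members were called against 0.0228% of all genes (DESeq2 0), with 2 at an unadjusted p under 0.05, Sprr1a and Sprr4 (12.8% of all genes).

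Libraries that stood apart among KO UVB touch these values. Replicate 3, highest for Lce3a, Lce3b, Lce3d and Sprr2g, had 413 CPM over 7 neutrophil markers, all of which had reads in every group, against 43.8 to 62.6 CPM in the other KO UVB libraries, 23.6 to 53.2 CPM in WT UVB, 29.8 to 51.4 CPM in KO control and 25.7 to 35.3 CPM in WT control. Replicate 4, lowest for Sprr1b and Sprr4, had 237 CPM of Krt6a against 1598 to 1775 CPM in the other KO UVB libraries and 189.5 to 245 CPM in WT UVB. Replicate 1, highest for Lce1a1, Lce1b and Lce1g, had the highest suprabasal marker sum of all libraries, 45490 CPM. Without replicate 4, Lce1m was called lower in KO skin, and 4 members were called between KO UVB and WT UVB, with Lce3d and Sprr2e added. Of 24 alternatives, Lce3d was called in 5 and Sprr2e in 2. The part of these libraries' makeup in the member values was not tested.

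Partners of the envelope moved in the same direction for the most part. Of 32 tested genes of the cornified layer, 20 were called higher and 5 lower in KO skin (median 0.70), where 17.2% of all genes were called higher and 15.1% lower. In WT skin 19 were called higher and 4 lower (median 0.99), where 10.2% of all genes were called higher and 8.6% lower. The KO share called lower was close to that of all genes. Filaggrin (Flg), which bundles keratin and is broken down to moisturising factors, rose by 3.64 ± 0.34 in KO and 3.95 ± 0.34 in WT. Involucrin (Ivl), an early scaffold of the envelope that lies between Sprr4 and Lce6a, rose by 1.87 ± 0.25 in KO and 1.81 ± 0.25 in WT. Loricrin (Lor), the main envelope protein, averaged 3710 ± 1117 CPM in KO UVB and 2451 ± 653 CPM in KO control, and 3951 ± 679 CPM in WT UVB and 1885 ± 231 CPM in WT control (SD, n = 4 each). Its change of 0.60 ± 0.22 in KO (adjusted p = 0.047) was lost without any 1 of 11 libraries, among them KO UVB replicate 1 (0.37, adjusted p = 0.17), and that in WT was 1.07 ± 0.22 (adjusted p = 0.0036).

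Of the 5 transglutaminases, the enzymes that cross-link these proteins, Tgm3 rose by 3.00 ± 0.31 in KO and 1.81 ± 0.29 in WT. Tgm1 rose by 0.88 ± 0.18 in KO and 1.17 ± 0.18 in WT. In all, 2 were called higher and 1 lower in KO (17.2% and 15.1% of all genes), and 3 higher and 1 lower in WT (10.2% and 8.6% of all genes), and 5 genes are too few to set against those shares. The lower one was Tgm6, at 0.0124 ± 0.0249 CPM in KO UVB and 0.558 ± 0.283 CPM in KO control, and 0.201 ± 0.311 CPM in WT UVB and 5.82 ± 2.37 CPM in WT control. Of 32 regulators of terminal differentiation, 8 were called higher and 1 lower in KO (17.2% and 15.1% of all genes; median 0.08), and 7 higher and 1 lower in WT (10.2% and 8.6% of all genes; median 0.18). The KO count of higher genes was not far from the share of all genes. They included Ehf, an Ets-family factor of epithelia, higher by 1.28 ± 0.20 in KO and 0.85 ± 0.20 in WT.

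Genes of the wounded or stressed keratinocyte were raised as well, 14 of 16 in KO (median 3.57) against 17.2% of all genes, and 10 of 16 in WT (median 2.59) against 10.2%, with 0 lower in either. Krt6a, a keratin of wounded epidermis, averaged 1308 ± 719 CPM in KO UVB against 112 ± 30.0 CPM in KO control, and 219 ± 24.8 CPM in WT UVB against 117 ± 18.7 CPM in WT control (SD, n = 4 each). Krt6a was called higher after UVB in KO (3.55, adjusted p = 7.7e-05) and not in WT (0.90, adjusted p = 0.14), where 3 of 24 alternatives called it. It was called between KO UVB and WT UVB (2.58 ± 0.43, adjusted p = 0.0091), as Lce3a and Lce3b were. Krt2, a keratin of the upper epidermis, was the 1 partner called lower in KO UVB, at 4.26 ± 3.02 CPM against 46.3 ± 14.3 CPM in WT UVB (-3.46 ± 0.46, adjusted p = 0.0012). Without UVB, 4 of 32 partners were called lower in KO than in WT and 0 higher, where 1.69% of all genes were called in either direction. These were Tchh, Tchhl1, Crnn and Prr9.

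Position on the chromosome gave a last view of the members. From the Sprr2 block to Lce1m they lie in 1 run, interrupted by few other genes. Apart from predicted genes (symbols starting with Gm), the tested neighbours inside the run rose in both genotypes. These were Ivl, Kprp (0.76 in KO and 1.25 in WT), 2310050C09Rik (1.08 in KO and 1.58 in WT) and Crct1 (0.98 in KO and 1.08 in WT). Of the predicted genes tested inside the run, Gm9774 was called in KO (2.46) and not in WT (1.19, adjusted p = 0.066). Gm4202 was called in neither (0.82 in KO, adjusted p = 0.073, and 0.52 in WT, adjusted p = 0.29). Outside the Sprr2 block, the nearest gene, Gm35439, was called in neither (-0.08 in KO, adjusted p = 0.89, and 0.11 in WT, adjusted p = 0.85). Prr9, which lies beyond Gm35439 and Lelp1, fell by 1.53 in KO and by 3.84 in WT. Lce1m, with no called change in either genotype, lies next to Crct1, and Sprr1a, not called in WT, lies between Sprr1b and Sprr4 with Sprr3 beside it.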

How the data were processed

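Per the labels' protocols, libraries were directional and poly(A)-enriched (NEBNext Ultra II). STAR and GRCm39 are named in the submitters' processing notes, with no version of STAR or of the annotation. The deposited values are raw read counts per gene in STAR's layout, and the reverse-strand counts were used. Summary lines (10.7 to 19.5% of reads unmapped, 7.25 to 10.2% outside genes, 1.18 to 1.42% ambiguous) stayed out of library sizes. A combined table has 17 value columns with no sample names and is not used here. Symbols for 52083 of 55359 IDs, gene order, exon lengths and shared stretches came from GENCODE annotation of GRCm38, and promoters from RefSeq (GRCm38.p6).

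The fit used edgeR 4.0.16 in R 4.3.3 (filterByExpr, TMM, robust quasi-likelihood) with 1 model of 4 groups with 5 contrasts, adjusted by Benjamini-Hochberg over 17531 genes. The method was tested on simulated data. Alternatives were DESeq2 1.42.0, its size factors in edgeR, other filters, unstranded counts, a replicate block, fits of 2 groups and leaving out each library. Each member is named, with all libraries' CPM for up to 3 of the most abundant members of a subfamily and for members called between genotypes. Other genes follow fixed lists. Members and lists were chosen with earlier results of these data known. Libraries of a group differed by more than sampling noise (chi-square per degree of freedom 14.3 to 151). Counting floors cover counting error only.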

Additional observations from a re-analysis of the deposited data

Results flagged for a closer look

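In 12 of 124 groups of 4 libraries (9.68%), 1 library's CPM of a member lay far from the other 3. Chance flags about 1 in 20 groups, and members share libraries. KO UVB replicate 3 stood highest for Sprr2e (5.49 CPM, others 0.913 to 1.15), Sprr2g (12.3, others 2.45 to 3.43), Sprr2i (6.74, others 2.99 to 3.37) and Lce3b (11.5, others 1.18 to 2.19). KO UVB replicate 1 stood highest for Lce1b (323 CPM), Lce1i (206.9) and Lce1k (101.7). KO UVB replicate 4 stood lowest for Sprr4 (73.4 CPM, others 131.7 to 132.8).

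The other flags were spread over libraries. WT UVB replicate 3 was highest for Sprr2a3 (19.1 CPM, others 6.12 to 8.31), and KO control replicate 4 for Lce1m (686 CPM, others 469 to 480.1). WT control replicate 1 was highest for Sprr2i (0.358 CPM, from 8 reads), and WT control replicate 4 for Lce3f (0.224 CPM, from 5 reads, with 0 in the others). The part of library makeup in these values was not tested.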

How the results depend on the processing

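Over 24 alternatives per comparison, the members called after UVB numbered 20 to 31 in KO skin (29 as reported) and 18 to 23 in WT skin (23). The lowest counts came from a mean count of at least 100, which tests 21 members. Between KO and WT without UVB, DESeq2 called 2 members and edgeR 0. Between KO and WT after UVB, the 2 reported calls became 0 with no filter beyond 1 read, 0 with a mean count of at least 100, 0 in a fit of these groups alone and 6 with DESeq2, and 0 to 4 without 1 library. The cause was not tested, apart from the higher filter, which leaves Lce3a and Lce3b untested. For single genes, 1885 recomputed values kept their direction and side of the threshold, 44 (of 6 genes' results) were no longer called, and 5 (of 2) became called. Values of changed sign belonged to uncalled genes in WT: Sprr2e (-0.16 to 1.53 without 1 library) and Lce1m (-0.18 to 0.025). With a replicate block, 28 members were called after UVB in KO (Sprr2e lost) and 23 in WT, and 2 between KO and WT after UVB. Outside the members, the block also lost the calls of Lor after UVB in KO (adjusted p = 0.079) and of Tnfrsf1b between KO and WT after UVB (adjusted p = 0.066), and changed no other call. Same-numbered libraries of different groups correlated at -0.40 to 0.22, so no pairing by number was seen. Differently numbered libraries were not compared, so this check cannot exclude pairing. Genes with under 20 reads in a group, such as Lce3a, Lce3b, Lce3d, Lce3e, Lce3f and Sprr2f in WT, are limited by depth.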
